A study of Mus musculus with 107 samples.

Results

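The angiopoietin and Tie receptor system was followed at the RNA level through 5 genes, Angpt1, Angpt2, Tek, Tie1 and Ptprb, chosen by symbol from the 50686 genes of the expression table. Each symbol matched 1 row, and all 5 rows passed the filter on low values, a mean of at least 0.5 TPM (a transcript level scaled for gene length and library size), as did 20258 genes in all. RNA-seq was performed on subcutaneous tumors of 12 mouse syngeneic models, in which a mouse cancer cell line grows in mice of a matching strain. Base tumors were treatment-naive and had reached about 100 mm3 (35 tumors). NT tumors were left untreated until day 8 (36 tumors). LEN tumors received lenvatinib, an inhibitor of the VEGF and FGF receptors and other kinases, by mouth for 7 days at a daily dose of 10 mg/kg before collection on day 8 (36 tumors). Every model gave 3 tumors per group, except for 2 Base tumors of MC38. BNL 1ME A.7R.1 and Hepa 1-6 are hepatocellular carcinoma models, Renca and RAG renal, LL/2 and KLN205 lung, CT26.WT and MC38 colorectal, 4T1 and EMT6 breast, MBT2 bladder and B16-F10 melanoma models. The hosts were BALB/cAnNCrlCrlj for BNL 1ME A.7R.1, RAG, 4T1, CT26.WT, EMT6 and Renca, C57BL/6NCrl for MC38 and B16-F10, C57BL/6JCrl for LL/2, C3H/HeNCrl for MBT2, DBA/2NCrl for KLN205 and C57L/J for Hepa 1-6. Mice were implanted at 7 weeks of age, were male for Hepa 1-6 and BNL 1ME A.7R.1 and female otherwise, and RAG cells had been adapted to growth in mice. Each model is therefore 1 cell line in 1 strain, and cell line and host cannot be told apart.

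Angpt1 and Angpt2 encode secreted ligands of the receptor tyrosine kinase TIE2, which is the product of Tek and is found mainly on vascular endothelial cells. ANGPT1, made mostly by mural and other stromal cells, activates TIE2 and stabilizes vessels. ANGPT2 is stored and released by endothelial cells, is raised by VEGF and hypoxia, and acts on TIE2 as a context-dependent antagonist or weak agonist. TIE1 is an orphan receptor that pairs with TIE2 and modulates its signal. Ptprb encodes VE-PTP, an endothelial phosphatase that removes phosphate from TIE2 and restrains it.

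In GRCm38, Angpt1 (ENSMUSG00000022309) lies on chromosome 15 from 42424723 to 42676977, minus strand. Angpt2 (ENSMUSG00000031465) lies on chromosome 8 from 18690263 to 18741562, minus strand. Tek (ENSMUSG00000006386) is on chromosome 4 from 94739289 to 94874976, plus strand, and Tie1 (ENSMUSG00000033191) is on the same chromosome from 118471191 to 118490061, minus strand. Ptprb (ENSMUSG00000020154) is on chromosome 10 from 116275523 to 116389535, plus strand. The table gives 1 level per gene over all its exons, so transcripts of a gene were not separated. ETS transcription factors, which bind around a GGAA core, drive many endothelial genes. Among the members, only Tek and Tie1 matched the promoter set used. The Tek window is shown, since a longer annotated Tie1 transcript overlaps the Tie1 window. The line below is the 250 bases before the RefSeq start of Tek, on the plus strand of GRCm38.p6 at chr4:94739039-94739288, with GGAA or its reverse complement TTCC in capitals.
Tek: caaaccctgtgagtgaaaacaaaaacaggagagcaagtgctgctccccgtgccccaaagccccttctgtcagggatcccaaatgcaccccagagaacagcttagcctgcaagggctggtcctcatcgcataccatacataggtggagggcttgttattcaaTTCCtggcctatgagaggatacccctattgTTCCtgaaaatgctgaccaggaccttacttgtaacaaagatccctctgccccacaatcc
This window holds 2 matches over both strands, and the 250 bases before the RefSeq start of Tie1 hold 7, part of which an annotated longer Tie1 transcript covers. Of 32851 mouse promoter windows of that length, 93.4% held at least 1, with a mean of 2.91 matches. Further motifs were searched on both strands. The GATA factor site GATAA was in neither window and in 22.6% of all windows. The forkhead site GTAAACA was in neither window and in 3.17% of all. The hypoxia-inducible factor core ACGTG was in neither window and in 16.6% of all.

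All tumors expressed endothelial markers, with Cdh5 between 3.02 and 44.1 TPM and Pecam1 between 4.12 and 47.5 TPM, and no member was at 0 in any tumor. Sequencing depth cannot be recovered from TPM. The abundant small RNAs, Rn7s1 and Rn7sk, took 14.9% to 30.3% of the TPM in Base tumors, 12.2% to 28.4% in NT tumors and 11.4% to 27.6% in LEN tumors. These are whole-tumor values, so fewer endothelial cells and less RNA per endothelial cell cannot be told apart.

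Before treatment, Angpt1 was the member whose level differed most between models. Base EMT6 tumors had 22.5, 27.1 and 29.3 TPM, and Base LL/2 tumors had 4.88, 5.14 and 5.58 TPM. Base BNL 1ME A.7R.1 tumors had 3.37, 3.78 and 4.72 TPM, and Base Hepa 1-6 tumors had 2.66, 4.02 and 4.28 TPM. EMT6 thus lay above every other model, LL/2 lay above the next, and BNL 1ME A.7R.1 and Hepa 1-6 overlapped. Means of 4T1 and KLN205 (both 1.58 TPM) and of MC38 (1.04 TPM) followed, while all tumors of Renca, RAG, B16-F10, MBT2 and CT26.WT were between 0.12 and 0.65 TPM. The ratio of the highest to the lowest model mean was 155 for Angpt1. Angpt2 was spread far less, with a ratio of 3.35. It was highest in B16-F10 (10.6, 12.1 and 13.6 TPM) and Hepa 1-6 (7.40, 10.4 and 15.7 TPM), whose tumors overlapped, and lowest in KLN205 (2.71, 4.03 and 4.10 TPM). None of the 11 pairs of neighbours in the Base order of Angpt2 was free of overlap, against 4 of 11 for Angpt1.

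The receptor genes and Ptprb shared their leading models, Renca, EMT6 and BNL 1ME A.7R.1. Tie1 had 9.05, 10.6 and 10.8 TPM in Base Renca tumors and 2.04, 2.19 and 2.47 TPM in Base RAG tumors, the lowest model. Tek was highest in BNL 1ME A.7R.1 (4.01, 4.12 and 4.37 TPM) and lowest in MC38 (0.69 and 0.78 TPM). Ptprb was highest in Renca (7.02, 8.58 and 10.2 TPM) and lowest in MC38 (1.92 and 2.49 TPM). For each of these 3 genes, neighbours among the 3 leading models overlapped. The third in order, Renca for Tek and BNL 1ME A.7R.1 for Tie1, lay above 4T1, the fourth, without overlap, but EMT6 overlapped 4T1 in both genes. In EMT6, the third Base tumor was high in all 3 genes, with Tek at 6.15 TPM against 1.88 and 2.32 TPM in the others, and its Cdh5 was 33.3 TPM against 20.0 and 22.0 TPM. Low levels were frequent for 2 of the genes, Tek being under 1 TPM in 11 of 35 Base, 22 of 36 NT and 28 of 36 LEN tumors, and Angpt1 in 16 of 35 Base, 18 of 36 NT and 18 of 36 LEN tumors. On the log2(TPM + 1) scale used for the tests, changes at such levels are understated, and ratios of mean TPM are therefore given for the main changes of both. All 5 genes differed between models before treatment (limma F test, adjusted p from 5.43e-42 for Angpt1 to 6.65e-10 for Angpt2), as did 92.6% of all genes tested.

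**Figure D1:**
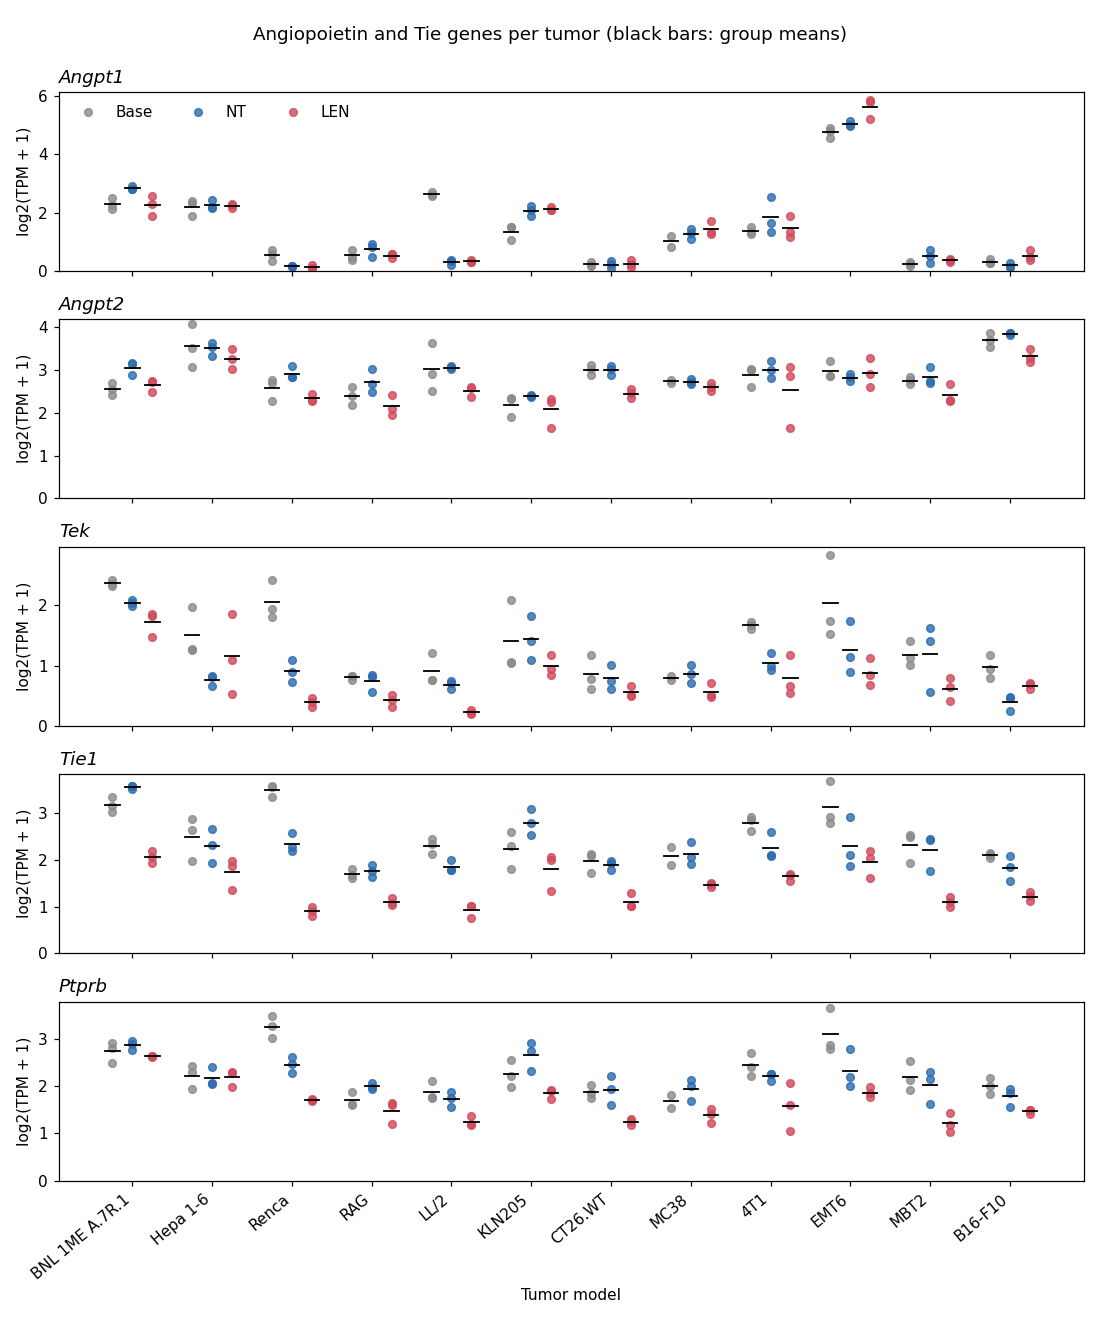
Level of each gene in every tumor, as log2(TPM + 1), by model and group (Base grey, NT blue, LEN red), with black bars at the group means. Angpt1 in EMT6 stands above all other models, Angpt1 in LL/2 is high in Base tumors only, and Tie1 is lower in LEN than in NT tumors in most models.

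Over the 36 group means, Tie1, Tek and Ptprb followed one another and the endothelial genes. The endothelial reference was the mean log2(TPM + 1) of 8 genes, Cdh5, Pecam1, Cldn5, Esam, Egfl7, Emcn, Erg and Robo4. Pearson's r with this reference was 0.97 for Tie1, 0.90 for Ptprb and 0.85 for Tek, but 0.45 for Angpt1 and 0.28 for Angpt2. Among the members, r was 0.91 between Tie1 and Ptprb, 0.89 between Tek and Ptprb, 0.88 between Tek and Tie1 and 0.08 between the ligands. The 36 means share models and tumors of the same cell line, so they are not independent points and no p is given.

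The genes most like each member over the same 36 means were of different kinds. For Tie1 they were Sox18 (r = 0.96), an endothelial transcription factor, Robo4 (0.95), She (0.94), Afap1l1 (0.94) and Emcn (0.94). For Tek they were Adcy4 (0.92), Fgd5 (0.91), Sox18 (0.91), Clec14a (0.91) and Fat4 (0.91). For Ptprb they were Ushbp1 (0.93), Fgd5 (0.93), Fat4 (0.93), Tie1 (0.91) and Plvap (0.91). Many of these, such as Robo4, Clec14a and Plvap, are known endothelial genes. For Angpt1 they were Pi15 (0.90), Ephx2 (0.88), Itgb8 (0.88), Gm43150 (0.88) and Pdlim7 (0.85), and for Angpt2 they were Idh2 (0.82), 1110037F02Rik (0.80), Rnf144a (0.79), Ppp1r16b (0.77) and Arhgef11 (0.77).

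**Figure D2:**
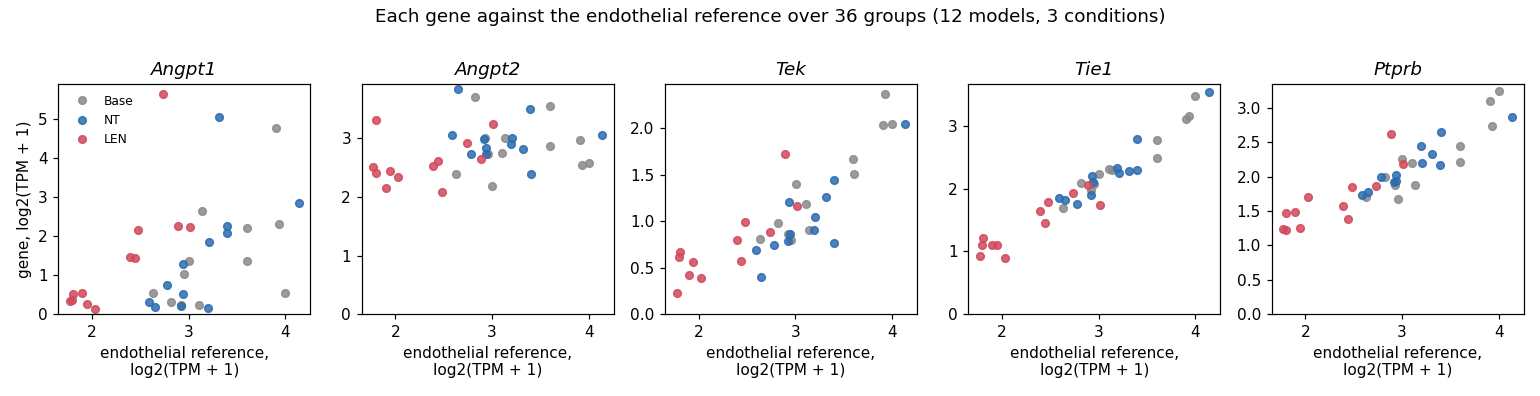
Mean log2(TPM + 1) of each gene (vertical) against the endothelial reference (horizontal) for 36 groups, colored by condition. Tie1 follows the reference closely (r = 0.97), Ptprb and Tek follow it with more spread, and the ligands do not line up with it.

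LEN was then compared with NT to ask how the system differed in tumors under VEGF and FGF receptor inhibition. Averaged over the 12 models, 4 of the 5 genes were lower under LEN and Angpt1 did not pass the test, against 9.44% of all genes lower and 12.7% higher. When tumors were rescaled to a common upper quartile, 3242 genes were lower and 2399 higher, in place of 1912 and 2574. Without the abundant small RNAs, 2920 were lower and 2127 higher, and under both scalings the same 4 members passed the test in the same direction. P-values rest on the spread between tumors of separate mice.

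Tie1 fell most. In BNL 1ME A.7R.1 it was 10.4, 10.8 and 10.8 TPM in NT and 2.78, 3.16 and 3.55 TPM in LEN tumors. In Renca it was 3.51, 3.79 and 4.95 TPM in NT and 0.74, 0.87 and 0.99 TPM in LEN tumors. Every LEN tumor lay below every NT tumor in 10 of 12 models, the exceptions being Hepa 1-6 and EMT6. Over all genes and models, 10.1% of comparisons had no overlap with LEN lower. The mean difference was -0.85 on the log2(TPM + 1) scale (SE 0.060, limma adjusted p = 9.64e-20), and the mean was lower in 12 of 12 models, as it was for 0.538% of all genes. The ratio of mean TPM, LEN over NT, had a geometric mean of 0.43, from 0.21 in Renca to 0.70 in EMT6. Tie1 passed the test within 7 models, BNL 1ME A.7R.1, Renca, MBT2, KLN205, LL/2, B16-F10 and 4T1, against 2.8% of all gene and model pairs called lower. The share of all genes called lower was 3.46% in BNL 1ME A.7R.1, 5.66% in Renca, 1.18% in MBT2, 2.37% in KLN205, 0.992% in LL/2, 1.55% in B16-F10 and 15.1% in 4T1. With each model fitted alone, 2 models passed. Without 1 of the tumors compared, the call was kept in BNL 1ME A.7R.1, Renca and MBT2 and lost in 4T1 (up to adjusted p = 0.226), B16-F10 (0.269), KLN205 (0.0847) and LL/2 (0.0749). With no minimum it was also lost in 4T1 (adjusted p = 0.0716) and B16-F10 (0.0830). The size of the fall differed between models (F test, adjusted p = 0.0136), as for 36.1% of all genes, from -1.49 in BNL 1ME A.7R.1 (adjusted p = 1.49e-08) and -1.44 in Renca (adjusted p = 2.20e-07) to -0.35 in EMT6 (adjusted p = 0.405).

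Ptprb, the phosphatase gene, was also lower. Renca had 3.87, 4.51 and 5.08 TPM in NT and 2.22, 2.25 and 2.30 TPM in LEN tumors. MBT2 had 2.09, 3.42 and 3.93 TPM in NT and 1.05, 1.27 and 1.70 TPM in LEN tumors. LEN tumors lay below all NT tumors in 11 of 12 models, as in 10.1% of all gene and model pairs. Hepa 1-6 was the exception, with 3.15, 3.18 and 4.32 TPM in NT and 2.93, 3.85 and 3.89 TPM in LEN tumors. The mean difference was -0.52 (SE 0.054, limma adjusted p = 2.54e-12), and the geometric mean ratio of TPM was 0.60. It passed the test in MBT2 (-0.81), KLN205 (-0.80), Renca (-0.75) and 4T1 (-0.63), and in 1 model when each was fitted alone. Of all genes, 1.18% were called lower in MBT2, 2.37% in KLN205, 5.66% in Renca and 15.1% in 4T1. The Renca call was kept without any 1 of the tumors compared, while those in 4T1 (-0.37, adjusted p = 0.424, without LEN replicate 4), KLN205 (-0.68, adjusted p = 0.0862, without NT replicate 4) and MBT2 (-0.67, adjusted p = 0.124, without NT replicate 1) were lost. A difference in its effect between models did not pass the test (adjusted p = 0.175). In BNL 1ME A.7R.1, Tie1 had its largest fall on the log2(TPM + 1) scale, though by ratio of mean TPM that was in Renca (0.21 against 0.30). Ptprb in BNL 1ME A.7R.1 was 5.81, 6.36 and 6.68 TPM in NT and 5.10, 5.20 and 5.20 TPM in LEN tumors. Its difference of -0.24 did not pass (adjusted p = 0.402).

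Tek, the gene of the receptor itself, was lower on average at low levels. LL/2 tumors had 0.52, 0.63 and 0.68 TPM in NT and 0.15, 0.16 and 0.20 TPM in LEN. Renca tumors had 0.65, 0.86 and 1.13 TPM in NT and 0.25, 0.31 and 0.38 TPM in LEN. In these models, BNL 1ME A.7R.1 and RAG, all LEN tumors lay below all NT tumors, as in 10.1% of all gene and model pairs. B16-F10 went the other way, with 0.19, 0.38 and 0.40 TPM in NT and 0.52, 0.61 and 0.64 TPM in LEN tumors. Hepa 1-6 had 0.59, 0.75 and 0.77 TPM in NT and a wide 0.45, 1.12 and 2.61 TPM in LEN tumors. The mean difference was -0.26 (SE 0.067, limma adjusted p = 0.00218), lower in 10 of 12 models. With a pseudocount of 0.1 in place of 1 it was -0.55 (adjusted p = 0.000109), and the geometric mean ratio of TPM was 0.64. Tek passed the test within 0 models, and within 2 with the pseudocount of 0.1. With the pseudocount of 1, the unadjusted p was under 0.05 in Renca and MBT2, 2 models, and limma gave 0 adjusted calls also in the 10 models where its level allowed a fit alone. A difference between models did not pass (F test, adjusted p = 0.196), but it did with the pseudocount of 0.1 (adjusted p = 0.0216).

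Among the ligands, Angpt2 was lower under LEN. B16-F10, its highest model, had 13.03, 13.5 and 13.6 TPM in NT and 8.10, 8.68 and 10.3 TPM in LEN tumors. LL/2 had 7.15, 7.33 and 7.48 TPM in NT and 4.17, 4.94 and 5.02 TPM in LEN tumors. CT26.WT had 6.36, 7.08 and 7.50 TPM in NT and 4.04, 4.50 and 4.88 TPM in LEN tumors. LEN tumors lay below all NT tumors in these and 5 other models, 8 in all, as in 10.1% of all gene and model pairs. EMT6 was the only model with a higher LEN mean, at 5.03, 6.50 and 8.76 TPM against 5.65, 6.09 and 6.45 TPM. The mean difference was -0.39 (SE 0.059, limma adjusted p = 2.81e-07), and the geometric mean ratio of TPM was 0.74, from 0.61 in RAG to 1.12 in EMT6. Within models limma called Angpt2 in 0 of 12 (unadjusted p under 0.05 in 7, 2 called with each model fitted alone, 4 under upper quartile rescaling). A difference between models did not pass (adjusted p = 0.498).

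Angpt1 moved in different directions. In EMT6 it was 30.4, 31.1 and 34.2 TPM in NT and 35.8, 54.3 and 57.3 TPM in LEN tumors, so LEN was higher without overlap. In BNL 1ME A.7R.1 it was 6.01, 6.02 and 6.49 TPM in NT and 2.74, 3.96 and 4.98 TPM in LEN tumors, so LEN was lower without overlap. The difference was 0.58 in EMT6 (limma adjusted p = 0.0404) and -0.58 in BNL 1ME A.7R.1 (adjusted p = 0.00688). Of all gene and model pairs, 3.94% were called higher and 2.8% lower. Of all genes, 1.9% were called higher in EMT6 and 3.46% lower in BNL 1ME A.7R.1. With each model fitted alone, neither Angpt1 difference passed (adjusted p = 0.184 and 0.0520), and 5 of 6 fits without 1 of the EMT6 tumors lost the EMT6 call. Without LEN replicate 4 the BNL 1ME A.7R.1 difference was -0.40 (adjusted p = 0.125), and with a pseudocount of 0.1 its adjusted p was 0.0989. With that pseudocount the EMT6 call was lost too (adjusted p = 0.326). B16-F10 had 0.09, 0.11 and 0.22 TPM in NT and 0.29, 0.38 and 0.63 TPM in LEN tumors, again without overlap, but its difference of 0.33, a ratio of mean TPM of 3.10, did not pass (adjusted p = 0.276). Angpt1 was thus higher without overlap in 2 of 12 models and lower in 1, where 11.9% of all gene and model pairs were higher and 10.1% lower without overlap. The effect differed between models (F test, adjusted p = 0.00600), as for 36.1% of all genes. The mean over models was -0.02 (95% interval -0.11 to 0.08, adjusted p = 0.872), lower in 6 of 12. The ratio of mean TPM, LEN over NT, was 1.54 in EMT6 and 0.63 in BNL 1ME A.7R.1, with a geometric mean of 1.003.

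The balance of the ligands was taken as log2(TPM + 1) of Angpt2 minus that of Angpt1. It differed under LEN by a mean of -0.37 (SD 0.26, 12 models; exact sign-flip permutation test, two-sided, p = 0.00146), and 11 of 12 models had the lower value under LEN. BNL 1ME A.7R.1, where Angpt1 was lower, was the exception at 0.17, and B16-F10 had the largest difference at -0.85. The mean is by construction the mean difference of Angpt2 (-0.39) less that of Angpt1 (-0.02). It therefore restates the fall of Angpt2 and is no separate result. The count depends on the pseudocount, since by ratios of mean TPM, a scale added after the values were seen, Angpt2 over Angpt1 was lower in 9 of 12 models and higher in BNL 1ME A.7R.1 (1.14), 4T1 (1.15) and MBT2 (1.08). On that scale the geometric mean of LEN over NT was 0.74 (exact sign-flip permutation test, two-sided, p = 0.0142). B16-F10, with Angpt1 at only 0.09 to 0.22 TPM in NT tumors, weighed most in it, at 0.22 against 0.55 in CT26.WT, the next lowest.

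**Figure D3:**
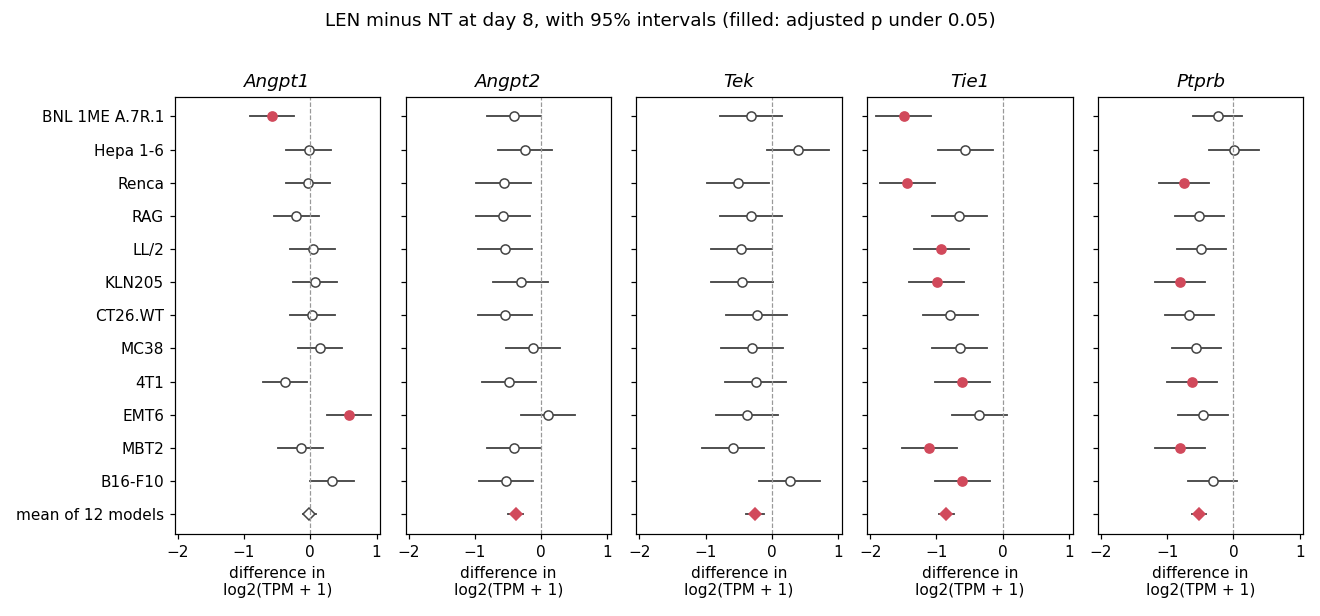
LEN minus NT in each model and averaged over 12 models (diamonds), as a difference in log2(TPM + 1) with 95% intervals; filled symbols have an adjusted p under 0.05. Tie1 is left of 0 in all 12 models, Angpt2 in 11, and Angpt1 has filled symbols on both sides.

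The endothelial genes were lower as a group under LEN, so the members were set against them. The summed level of the 8 reference genes ranged from 53.3 to 230.3 TPM in Base, 52.1 to 191 TPM in NT and 19.5 to 102 TPM in LEN tumors, and none was at 0 in any tumor. All 8 fell under LEN, from -0.59 for Erg and -0.69 for Egfl7 through -0.72 for Pecam1, -0.74 for Esam, -0.84 for Robo4 and -1.002 for Emcn to -1.09 for Cldn5 and -1.17 for Cdh5, with a median of -0.79 against -0.0014 over all genes. Their mean fell by 0.86. The difference between Tie1 and this reference changed by 0.01 (95% interval -0.06 to 0.08, limma adjusted p = 0.840), while 98.8% of all genes were higher and 0.079% lower relative to it. With Cdh5 and Pecam1 alone as the reference, Tie1 was higher by 0.10 (adjusted p = 0.0324). Ptprb, Angpt2, Tek and Angpt1 were higher relative to the 8 genes by 0.34, 0.47, 0.60 and 0.84, as nearly all genes were, and nothing particular to them is read from it. The low level of Tek compresses its change on this scale, and its relative value was 0.56 with a pseudocount of 0.1. The part of the lower endothelial signal in the falls of Tek, Tie1, Ptprb and Angpt2 was not tested.

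Genes known to respond to VEGF or to mark tip cells fell in 7 of 8 cases, with a median of -0.73. For this and the lists that follow, the share of all genes tested was 9.44% lower and 12.7% higher. Esm1 fell by 1.31, Nid2 by 1.26, Dll4, a Notch ligand, by 0.98, Flt4 by 0.74, Kdr, the main VEGF receptor gene, by 0.71, Plvap by 0.64 and Apln by 0.48, while Cxcr4 was at -0.07 (adjusted p = 0.572). Pericyte and smooth muscle genes, which mark cells that can make ANGPT1, fell in 7 of 10 and rose in 1, Des at 0.83 (median -0.32). Their leading genes by level were Acta2 (-0.54), Pdgfrb (-0.37) and Tagln (-0.04, adjusted p = 0.833), and the list summed to 24.1 to 551.7 TPM in NT and 16.5 to 453.8 TPM in LEN tumors. Of other cell type lists, fibroblast genes were lower in 1 and higher in 1 of 6 (Col1a1 at -0.29 and Dcn at 0.36, with Col3a1 at 0.08, adjusted p = 0.672, and Col1a2 at -0.18, adjusted p = 0.198), macrophage genes lower in 3 of 4 (Mrc1 at -0.53 and Csf1r at -0.45, while Cd68, the most abundant, was at 0.05, adjusted p = 0.651), lymphatic genes lower in 1 and higher in 1 of 3 (Lyve1 at -0.62, Pdpn at 0.35) and platelet genes lower in 1 of 4 (Pf4 at -0.24). Summed macrophage genes ranged from 23.4 to 556.7 TPM in NT and 52.8 to 548.2 TPM in LEN tumors. Some macrophages are known to carry TIE2, and the part of these cells in the Tek values was not tested.

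**Figure D4:**
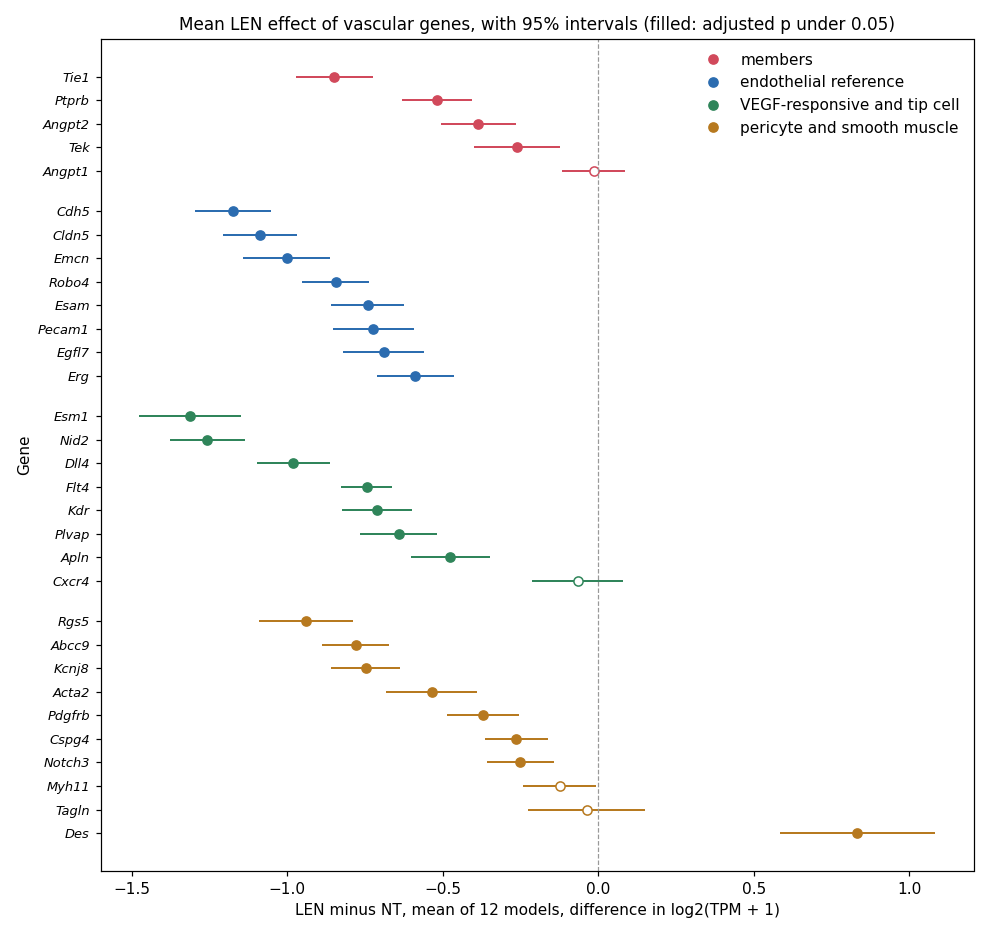
Mean LEN effect over 12 models, as a difference in log2(TPM + 1) with 95% intervals, for the 5 members (red), endothelial reference genes (blue), VEGF-responsive genes (green) and pericyte and smooth muscle genes (ochre); filled symbols have an adjusted p under 0.05. Tie1 sits among the endothelial reference genes at -0.85, and the other members lie to their right.

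Of 27 other ligands, adaptors, kinases and targets tested, 1 was lower and 7 were higher under LEN, with a median of 0.03, against 9.44% of all genes lower and 12.7% higher. The gene that fell was Nos3, the endothelial nitric oxide synthase, at -0.43 (SE 0.042, limma adjusted p = 1.76e-13), lower in 12 of 12 models. The leading rises were Grb7, an adaptor that binds TIE2, at 0.21 (adjusted p = 1.59e-05), Dok2, another TIE2 adaptor also used by leukocytes, at 0.21 (adjusted p = 0.0252), Klf2, a flow-responsive transcription factor, at 0.20 (adjusted p = 0.00102), and Adam17, a sheddase, at 0.14 (adjusted p = 0.00217). Unlike the fall of Nos3, these were rises of the mean over models, since the LEN mean was lower in 5 of 12 models for Grb7 and Klf2, 4 for Adam17 and 3 for Dok2. The other 3 that rose were the integrin genes Itga5 (0.14, lower in 5 of 12 models), Itgav (0.13, lower in 4) and Itgb1 (0.09, lower in 4). Most of these genes are expressed in many cell types, so whole-tumor values say little of them in endothelial cells. Angpt4, the remaining ligand gene of the family, was at -0.03 (adjusted p = 0.734), lower in 8 of 12 models. Its means were highest in EMT6, with 3.98 TPM in Base, 3.89 TPM in NT and 3.45 TPM in LEN tumors. In Hepa 1-6 it was higher under LEN without overlap, with 0.54, 0.96 and 1.92 TPM in NT and 2.33, 2.91 and 4.53 TPM in LEN tumors.

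NT tumors were compared with Base tumors of the same models, which came from other mice and were collected at a different point. Tumor growth, collection and any difference in sequencing instrument cannot be told apart in this comparison, and the part of each was not tested. The NT tumors are the same ones that served as controls for LEN, so the comparisons are not independent. Tek and Tie1 fell on average, and the other members did not pass the test, while 11.6% of all genes were lower and 12.6% higher. Under upper quartile rescaling 4126 genes were lower and 1428 higher, in place of 2343 and 2545, and without the abundant small RNAs 3011 and 1713. Tek was 2.48, 2.82 and 4.32 TPM in Base and 0.65, 0.86 and 1.13 TPM in NT tumors of Renca, a difference of -1.15 (limma adjusted p = 0.000301). In 4T1 it was 2.06, 2.17 and 2.28 TPM in Base and 0.90, 0.99 and 1.31 TPM in NT tumors, without overlap, but the difference of -0.62 did not pass (adjusted p = 0.0765). Tek passed within 3 models, Renca, EMT6 and Hepa 1-6, where 8.46%, 10.9% and 15.5% of all genes were called lower. NT tumors lay below all Base tumors in 6 of 12 models, whereas 13.3% of all gene and model pairs were without overlap in that direction. The mean difference was -0.37 (SE 0.068, limma adjusted p = 3.07e-05), lower in 9 of 12 models, with a geometric mean ratio of TPM of 0.62. Relative to the endothelial reference, which fell by 0.18, Tek was lower by -0.19 (adjusted p = 0.00118), as were 1.97% of all genes.

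The mean of Tie1 was lower in NT than in Base tumors in 8 of 12 models. In Renca it went from 9.05, 10.6 and 10.8 TPM in Base to 3.51, 3.79 and 4.95 TPM in NT tumors, without overlap. In BNL 1ME A.7R.1 it was 7.12, 7.77 and 9.09 TPM in Base and 10.4, 10.8 and 10.8 TPM in NT tumors, again without overlap but the opposite way. The BNL 1ME A.7R.1 difference of 0.38 did not pass the test (adjusted p = 0.195). The mean was -0.21 (SE 0.061, limma adjusted p = 0.00608), but -0.13 (adjusted p = 0.129) without Renca and -0.16 (adjusted p = 0.0759) without EMT6. Within models Tie1 was lower in Renca (-1.14) and EMT6 (-0.83) and higher in KLN205 (0.56, adjusted p = 0.0444). The KLN205 call was lost in the fit of Base and NT tumors alone (adjusted p = 0.0619), with no minimum (0.0874), with a pseudocount of 0.1 (0.0659), without the abundant small RNAs (0.509) and under upper quartile rescaling (0.543). It was also lost without the Base tumors numbered 1 (0.347) or 3 of all models, and without NT replicate 2 or 4 of KLN205. Of all gene and model pairs, 4.17% were called lower and 6.23% higher. In single models, 8.46% of all genes were lower in Renca and 10.9% in EMT6, and 21.5% were higher in KLN205. Relative to the endothelial reference Tie1 differed by -0.03 (95% interval -0.11 to 0.04, adjusted p = 0.416).

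Ptprb and Tek had further falls in Renca, EMT6 and Hepa 1-6. Ptprb in Renca was 7.02, 8.58 and 10.2 TPM in Base and 3.87, 4.51 and 5.08 TPM in NT tumors, a difference of -0.80 (limma adjusted p = 0.00203). In EMT6 the differences were -0.77 for Ptprb, -0.78 for Tek and -0.83 for Tie1. They did not pass without the third Base tumor of each model, at -0.50, -0.37 and -0.55 (adjusted p = 0.0732, 0.292 and 0.0726), and Tek also not without NT replicate 1 of EMT6. Tek in Hepa 1-6 was 1.38, 1.43 and 2.94 TPM in Base and 0.59, 0.75 and 0.77 TPM in NT tumors, a difference of -0.74 (adjusted p = 0.0205), in a model where 15.5% of all genes were lower. It also did not pass without those Base tumors (-0.50, adjusted p = 0.229), without NT replicate 2 or 3, under upper quartile rescaling (-0.62, adjusted p = 0.0767) or without the abundant small RNAs (-0.65, adjusted p = 0.0625). The mean over models for Ptprb was -0.11 (adjusted p = 0.162). The change differed between models for Tek (F test, adjusted p = 0.00987), Tie1 (3.85e-05) and Ptprb (0.000568), as for 55.7% of all genes. For Tek this difference missed the threshold in 2 fits with tumors left out.

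Angpt2 did not pass the test, with a mean difference of 0.13 (95% interval 0.01 to 0.25, limma adjusted p = 0.111) and 0 of 12 models called (unadjusted p under 0.05 in BNL 1ME A.7R.1, and 1 model with the Base and NT tumors fitted alone). NT tumors lay above all Base tumors in 3 models, BNL 1ME A.7R.1, Renca and KLN205, and 14.3% of all gene and model pairs did so. Relative to the endothelial reference Angpt2 was higher by 0.31 (adjusted p = 1.76e-06), as were 62% of all genes. A difference between models did not pass (adjusted p = 0.666).

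The largest change of any member was that of Angpt1 in LL/2. The 3 Base tumors had 4.88, 5.14 and 5.58 TPM, the NT tumors 0.14, 0.26 and 0.29 TPM and the LEN tumors 0.24, 0.24 and 0.30 TPM. All day 8 tumors, treated or not, were thus far below all Base tumors. The NT mean TPM was 0.044 of the Base mean, and the difference was -2.33 (SE 0.17, limma adjusted p = 7.62e-19), and 2.79% of all genes were called lower there. It was the 18th largest fall of the 20258 genes in that model, in which 38 genes fell and 45 rose by at least 2 on the log2(TPM + 1) scale. Other models had 33 to 104 genes that fell and 23 to 62 that rose so far, so LL/2 was within their range. The remaining members did not pass the test in LL/2. Renca also had less Angpt1, at 0.28, 0.51 and 0.63 TPM in Base and 0.10, 0.13 and 0.13 TPM in NT tumors, but its difference of -0.39, a ratio of mean TPM of 0.25, did not pass (adjusted p = 0.147). Angpt1 was higher in NT than Base tumors in KLN205 (1.08, 1.83 and 1.83 TPM in Base, 2.68, 3.26 and 3.74 TPM in NT, a difference of 0.72, adjusted p = 0.00148, with 21.5% of all genes higher). It was also higher in BNL 1ME A.7R.1 (a difference of 0.54, adjusted p = 0.0129, with 17.5% of all genes higher). Neither of these passed under upper quartile rescaling (adjusted p = 0.0840 and 0.0986) or without the abundant small RNAs (0.0949 and 0.0688). The BNL 1ME A.7R.1 call was also lost with a pseudocount of 0.1 (adjusted p = 0.134), without the third Base tumor of each model (0.0903) and without NT replicate 3. The F test for a difference between models gave an adjusted p of 3.11e-16, and 55.7% of all genes passed it. The mean over models was -0.0032 (adjusted p = 0.975), with a geometric mean ratio of TPM of 0.88, and it was 0.21 without LL/2 (adjusted p = 0.00144).

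**Figure D5:**
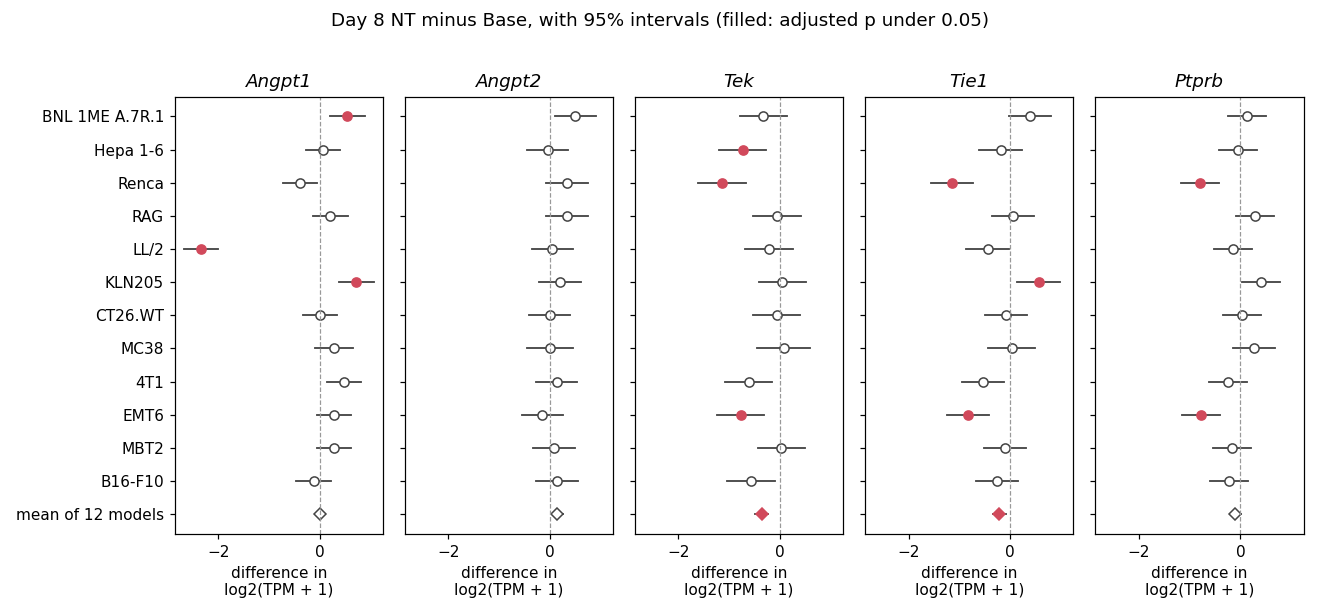
NT minus Base in each model and averaged over 12 models (diamonds), as a difference in log2(TPM + 1) with 95% intervals; filled symbols have an adjusted p under 0.05. Angpt1 in LL/2 lies at -2.33, and Tek, Tie1 and Ptprb are lower in Renca and EMT6.

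Among the 27 pathway genes, 5 were lower and 7 higher in NT than in Base tumors (median 0.05), against 11.6% of all genes lower and 12.6% higher. The lower ones were Svep1 (-0.57), an extracellular protein that binds TIE1, Dok2 (-0.54), Nos3 (-0.23), Angpt4 (-0.14) and Tnip2 (-0.13). The higher ones were Adam17 (0.19), Pik3ca (0.19), Itgb1 (0.18), Ptpn11 (0.17), Itgav (0.16), Nck1 (0.13) and Pik3cb (0.11). Of the 8 endothelial reference genes 5 were lower and none higher (median -0.19), namely Egfl7 (-0.34), Pecam1 (-0.32), Erg (-0.23), Emcn (-0.22) and Esam (-0.16). Of the 8 VEGF-responsive genes, Plvap (-0.29) and Kdr (-0.18) were lower and Esm1 (0.54) and Apln (0.39) higher. Of 10 pericyte and smooth muscle genes, Des (-0.68) and Myh11 (-0.17) were lower and Tagln (0.25) higher. Fibroblast genes were lower in 3 of 6, Dcn (-0.65), Lum (-0.45) and Col3a1 (-0.41). Lyve1 (-0.42) and Pdpn (-0.27) of 3 lymphatic, Mrc1 (-0.44) of 4 macrophage and Pf4 (-0.39) of 4 platelet genes were lower.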

How the data were processed

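Libraries depleted of ribosomal RNA were sequenced by the authors on NovaSeq and NextSeq instruments; which tumor was run on which is not given in the sources used here. Per the methods and labels, reads were trimmed with Trimmomatic 0.36, mapped with STAR 2.5.2b and quantified with RSEM 1.2.31 against the mouse genome (mm10, Ensembl annotation). The authors deposited TPM for 50686 genes in each tumor, summing to 999999 to 1000001 per tumor. TPM keeps no depth, so counting precision is unknown.

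TPM was analysed as log2(TPM + 1) with limma 3.58.1 in R 4.3.3 (lmFit, eBayes with a mean-variance trend, 71 residual degrees of freedom), with all Base, NT and LEN tumors as 36 groups and the 20258 genes of mean TPM of at least 0.5. P-values were adjusted by Benjamini-Hochberg over all genes tested, with a threshold of 0.05. Per-model contrasts, their mean over 12 models and F tests were taken for LEN minus NT and NT minus Base. The test was tested on simulated data for the mean LEN effect over 20258 genes, where it recovered 95% of 200 changed genes and 7.32% of its calls were unchanged genes. Positions came from GENCODE M21 and promoters from RefSeq, which matched Tek and Tie1. Ccl21a matched more than 1 row and was left out. Plots were drawn with Python 3.11.15 and matplotlib 3.10.9.

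The members, lists and tests were chosen with earlier results of these data known. The endothelial reference shares Tek's cell type, and Tek, Cdh5 and Kdr were among the candidates from which the study picked genes for a microvessel density score. Genes named are the members, the 5 genes most correlated with each, the endothelial and VEGF-responsive lists, up to 4 pathway genes per direction among those past the threshold, and the up to 3 most abundant genes of other lists. Angpt4, Svep1, Tnip2, Ptpn11, Nck1, Pik3ca, Pik3cb, the integrin genes, Des, Myh11, Dcn and Lum were named after their values were seen. Alternatives were another pseudocount, minimum and scaling, fits of fewer groups, a replicate block, other references, and leaving out each model or each NT or LEN tumor. Base tumors were left out by replicate number, from all models at once.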

Additional observations from a re-analysis of the deposited data

Results flagged for a closer look

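Effects that differed between models, by the F test of 11 contrasts in the limma fit, were looked at again. For LEN minus NT these were Angpt1 (adjusted p = 0.00600), which was higher in EMT6 and lower in BNL 1ME A.7R.1, and Tie1 (adjusted p = 0.0136), which was lower in 12 of 12 models by differing amounts. For NT minus Base these were Angpt1 (adjusted p = 3.11e-16), led by LL/2, Tie1 (adjusted p = 3.85e-05), Ptprb (adjusted p = 0.000568) and Tek (adjusted p = 0.00987), led by Renca and EMT6. Of all genes tested, 36.1% differed between models for LEN minus NT and 55.7% for NT minus Base. The Tek difference for NT minus Base missed the threshold in 2 fits with tumors left out. Single outlying tumors were not tested for, as each group held 2 or 3.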

How the results depend on the processing

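The LEN falls of Tie1, Ptprb, Angpt2 and Tek on average, and the NT fall of Tek, kept their direction and passed the threshold under all alternatives run. Calls within single models, with 2 or 3 tumors a group, were less stable. A minimum of 5 TPM kept only Angpt2 among the members, and fits of single models dropped Angpt1 or Tek where their mean was under the minimum. The causes of the changes below were not tested. For NT minus Base, ranges without single tumors also cover fits without the Base tumors of a replicate number in all models at once.

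Angpt1's mean LEN effect, never past the threshold, was above 0 with a pseudocount of 0.1 (0.0021) and without 4T1 (0.018), BNL 1ME A.7R.1 (0.036) or RAG (0.0024), and -0.037 to 0.014 without single tumors. Its NT minus Base mean was 0.014 with a replicate block, 0.0079 without B16-F10, 0.032 without Renca and 0.21 without LL/2 (adjusted p = 0.00144), and -0.032 to 0.018 without single tumors. Relative to the reference, its NT minus Base value missed the threshold with a pseudocount of 0.1 (0.084) and without 4T1 (0.114), EMT6 (0.114) or Renca (0.155), and was 0.137 to 0.233 without single tumors.

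Tie1's LEN effect relative to the reference was below 0 with a pseudocount of 0.1 (-0.052), without Cdh5 (-0.038), Cldn5 (-0.025) or Emcn (-0.013) in the reference, and without 4T1 (-0.011), B16-F10 (-0.013), CT26.WT (-0.0088), EMT6 (-0.013) or RAG (-0.013). It was 0.10 with Cdh5 and Pecam1 alone, and -0.0044 to 0.019 without single tumors. Tie1's NT minus Base mean missed the threshold without EMT6 (-0.16) and Renca (-0.13).

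Ptprb's NT minus Base mean passed under upper quartile rescaling (-0.15) and without KLN205 (-0.15). Its value relative to the reference (0.075, adjusted p = 0.0484) missed the threshold in the fit of Base and NT tumors alone and with no minimum (0.075 each), with a pseudocount of 0.1 (0.088), a replicate block (0.077), without Egfl7 (0.053), Emcn (0.069), Erg (0.068) or Pecam1 (0.056) in the reference, and without 4T1 (0.068), Hepa 1-6 (0.067), LL/2 (0.046), MC38 (0.056), RAG (0.069) or Renca (0.081). Without single tumors it was 0.052 to 0.097.

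Replicate numbers did not pair the tumors: none of 20 LEN and NT pairs (r from -0.066 to 0.069) or 25 NT and Base pairs (r from -0.13 to 0.094) correlated above 0.1. With a replicate block, the LEN difference between models had an adjusted p of 0.0897 for Angpt1 and 0.109 for Tie1, the Ptprb differences were -0.050 in 4T1 (adjusted p = 1) and -0.63 in KLN205 (0.11), the Tie1 differences were -0.81 in KLN205 (0.0708) and -0.41 in 4T1 (0.829), the NT minus Base difference of Tek in Hepa 1-6 was -0.64 (0.0684), and 1113 genes were lower and 1607 higher on average. For Tek that p was 0.0216 with a pseudocount of 0.1 and 0.0459 to 0.463 without single tumors (under the threshold without Hepa-LEN replicate 5). Its NT minus Base counterpart was 0.000903 to 0.0762.

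Genes lower under LEN numbered 3242 with upper quartile rescaling and 2920 without abundant RNAs, and genes higher 1625 without BNL 1ME A.7R.1. For NT minus Base, upper quartile rescaling gave 4126 lower and 1428 higher, a minimum of 5 TPM 869 lower, and 1576 and 1480 were higher without EMT6 and KLN205.

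Models called under LEN, each fitted alone, were 2 lower for Tie1, 1 for Ptprb, 2 for Angpt2 and 0 in either direction for Angpt1. Without abundant RNAs 2 were lower for Angpt1 and 1 for Angpt2, and upper quartile rescaling gave 4 for Angpt2. A pseudocount of 0.1 gave 2 lower for Tek and 0 for Angpt1. The EMT6 rise of Angpt1 was lost (0 models) in the day 8 fit, with no minimum, with a replicate block and under both scalings. For NT minus Base, Angpt1 was higher in 1 model and lower in 2 with a pseudocount of 0.1 and higher in 0 under both scalings. Tie1 was higher in 0 models in the Base and NT fit, with no minimum, the pseudocount, a replicate block and both scalings, and Angpt2 was higher in 1 in the Base and NT fit. Without single tumors, under LEN 0 to 2 models were lower for Angpt1 and Angpt2, 0 to 1 for Tek, and 0 to 1 higher for Angpt1. For NT minus Base, counting also fits without the Base tumors of a replicate number in all models, 1 to 3 were higher for Angpt1 and 0 to 1 for Angpt2, Ptprb and Tie1. Those lower were 1 to 3 for Tek and 1 to 2 for Ptprb and Tie1.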
